A study of Drosophila melanogaster with 2 samples.

Results

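Intronic peaks near promoters are binding peaks of E(spl)m8-HLH whose summit lay inside the body of a protein-coding gene, in no annotated exon, and over 500 and up to 5000 bp from the nearest protein-coding transcription start site. They were chosen by position alone, from the peaks the authors kept after a test of reproducibility between replicates (irreproducible discovery rate, hereafter the optimal set). There were 1443 such peaks, or 23.5% of the optimal set (95% exact binomial interval 22.4 to 24.5%), which held 4709 others: 2279 within 500 bp of a start site, 256 in exons, 884 deeper in introns, and 671 and 619 outside gene bodies up to and over 5000 bp from a start site.

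Chromatin bound by the protein was precipitated with an antibody against GFP and sequenced (ChIP-seq), from *Drosophila melanogaster* embryos carrying E(spl)m8-HLH tagged with GFP at its C-terminus. Embryos were 4 to 14 h old, of both sexes and used whole, and formed 1 group of 2 biological replicates, numbered 2 and 3. No second genotype, treatment or stage was compared. The tagged protein came from a transgene, whose extent and regulatory sequence were not given in the sources used here, and both replicates carried it. Since chromatin of all cell types was pooled, a peak bound strongly in few cells and one bound weakly in many cannot be told apart.

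The bHLH-Orange protein E(spl)m8-HLH belongs to the Hairy/E(spl) family of transcriptional repressors. Genes of the E(spl) complex are switched on by Notch signalling, through the DNA-binding protein Su(H), and their products recruit the corepressor Groucho and hold back neural fate in cells next to a neural precursor. Hairy/E(spl) proteins bind the class B E-box CACGTG and the class C site CACGCG in vitro. Introns close to a promoter, first introns above all, often hold enhancers in flies.

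The windows below run 50 bp to either side of a summit and are printed 5′ to 3′ on the plus strand of dm6, with sequence from RefSeq. Only windows free of exons were eligible. The first set shows the strongest members, since none of these windows holds a class B or class C site and all are rich in A and T. Capitals mark TATAAA in either orientation, the motif whose share rose most clearly at summits.
ush intron, chr2L:481011-481111: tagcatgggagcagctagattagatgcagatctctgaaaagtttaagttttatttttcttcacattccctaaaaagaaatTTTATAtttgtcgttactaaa
CG11050 intron, chr2L:6612654-6612754: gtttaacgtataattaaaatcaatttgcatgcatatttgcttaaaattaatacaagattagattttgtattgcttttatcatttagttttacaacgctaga
Lk6 intron, chr3R:11761002-11761102: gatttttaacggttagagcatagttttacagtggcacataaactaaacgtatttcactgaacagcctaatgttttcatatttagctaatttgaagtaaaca
CG32772 intron, chrX:4910325-4910425: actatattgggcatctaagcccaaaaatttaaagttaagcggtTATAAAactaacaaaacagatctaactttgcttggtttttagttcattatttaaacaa

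The second set shows the strongest members with a class B E-box within 50 bp of the summit, in capitals. A class B site was rare among members, and the windows of numb and of the intron of PH4alphaEFB next to spdo come from peaks that ranked much better in replicate 3 than in replicate 2.
numb intron, chr2L:9454523-9454623: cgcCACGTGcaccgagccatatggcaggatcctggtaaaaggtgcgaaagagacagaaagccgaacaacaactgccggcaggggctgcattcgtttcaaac
PH4alphaEFB intron, chr3R:30474848-30474948: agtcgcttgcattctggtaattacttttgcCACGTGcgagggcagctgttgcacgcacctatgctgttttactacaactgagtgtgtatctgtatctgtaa
Rbfox1 intron, chr3L:10519076-10519176: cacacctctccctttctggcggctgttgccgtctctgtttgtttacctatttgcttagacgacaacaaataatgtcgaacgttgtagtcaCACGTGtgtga
Notum intron, chr3L:16027485-16027585: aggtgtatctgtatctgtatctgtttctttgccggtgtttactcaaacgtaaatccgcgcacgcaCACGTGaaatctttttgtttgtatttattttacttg

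The third set shows the strongest members with a class C site, in capitals, in either orientation. The window of pico holds more than 1 copy.
neur intron, chr3R:9024961-9025061: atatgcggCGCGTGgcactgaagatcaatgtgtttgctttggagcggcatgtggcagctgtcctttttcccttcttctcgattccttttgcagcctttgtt
pico intron, chrX:19842410-19842510: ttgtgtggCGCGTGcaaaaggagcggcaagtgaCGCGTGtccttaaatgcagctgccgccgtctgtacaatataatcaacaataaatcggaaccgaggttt
mib2 intron, chr2L:19037199-19037299: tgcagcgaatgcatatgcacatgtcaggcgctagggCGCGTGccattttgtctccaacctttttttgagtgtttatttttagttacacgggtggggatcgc
Klp98A intron, chr3R:27555101-27555201: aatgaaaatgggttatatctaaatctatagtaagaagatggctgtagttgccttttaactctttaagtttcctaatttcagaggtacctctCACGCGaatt

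The strongest member lay in the first intron of ush, which encodes a cofactor of GATA factors, 1373 bp upstream of a start site of cbt, a zinc finger transcription factor gene. The signal value, the peak signal deposited by the authors, was 3836 for this member in the optimal set, 2087 in the list of replicate 2 and 1709 in that of replicate 3. Signal values are not on a common scale between lists, so ranks are used to set the replicates side by side, with 1 as the strongest peak of a list. The ush member ranked 8 in replicate 2 and 6 in replicate 3. A member in an intron of CG11050 had a signal of 3758 and ranked 7 and 8. Both replicates thus placed these members among their first 10 peaks, and 4 members stood among the 20 strongest peaks of the optimal set.

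The other members among the strongest 20 lay in genes of several kinds. Lk6, a kinase that acts on a translation initiation factor, held a member with a signal of 2842, ranked 17 and 21 in replicates 2 and 3. Trl, which encodes GAGA factor, held one with a signal of 2691 that ranked 22 in both. The member in cno, the fly afadin of adherens junctions, ranked 42 and 29 (signal 2352). The member in Tlk, a kinase of chromatin assembly, ranked 38 and 64 (signal 2259). Further genes of chromatin were HmgZ, an HMG box protein (49 and 60), Alh, a zinc finger protein (65 and 63), Kdm2, a histone demethylase (113 and 61), and simj, a subunit of the NuRD complex (117 and 69). The remaining hosts were CG32772, CG9663, chif, which encodes the activator of the replication kinase Cdc7, CG12769, Reph, cpo, sim, for, numb and LPCAT. The member of sim, the master gene of the ventral midline, ranked 85 and 142, and that of for, a cGMP-dependent protein kinase, ranked 109 and 107. In 19 of these 20 members the nearest start site belonged to the host gene.

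Over all 1443 members the signal ran from 169 through a median of 299.6 to 3836, and the median width was 400 bp. A peak overlapping the member by at least 1 bp was present in both replicate lists for 1430 members, while 3 members had none in replicate 2 and 10 had none in replicate 3. Signals in the replicate lists had a Spearman correlation of 0.81 across the 1430 members. This is a description across peaks, which are not independent. Of the members, 1326 (91.9%, 90.4 to 93.2%) overlapped one of the strongest peaks of replicate 2, taken to the same number as in the optimal set, and 1284 (89.0%) one of those of replicate 3. For deep intronic peaks, which lay in introns over 5000 bp from a start site, the shares were 89.5% and 85.2%. The difference passed a 2-sided Fisher's exact test in replicate 3 (adjusted p = 0.0479) and missed it in replicate 2 (adjusted p = 0.105, Benjamini-Hochberg over 6 comparisons). In replicate 3 the call was lost at 50% overlap (exact adjusted p = 0.0733) and with summits within 100 bp (0.0688), and in the stronger 50% of the optimal set the difference was -0.0257 percentage points. All classes were drawn from peaks kept for reproducibility between these same replicates, which in part sets such overlaps. Members did not differ past the threshold from promoter peaks, within 500 bp of a start site, in either replicate (exact adjusted p = 0.807 and 0.0865), nor from proximal intergenic peaks, outside gene bodies at the same distances (adjusted p = 0.106 and 0.717).

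In strength, 52.0% of members (49.4 to 54.6%) and 51.9% of promoter peaks were in the stronger 50% of the optimal set, a difference that did not pass the threshold (2-sided Fisher's exact test, adjusted p = 0.973 over 9 comparisons). Of deep intronic peaks 46.9% were, which missed the threshold (exact adjusted p = 0.0566). Ranked by replicate 2 the shares of members and deep intronic peaks were 51.5% and 45.4%, and by replicate 3 they were 53.3% and 46.7%, and both of these differences passed (Fisher's exact test, adjusted p = 0.0190 in each). Proximal intergenic peaks, at 48.6%, did not differ past the threshold from members (exact adjusted p = 0.190). Fisher tests count each peak once, although neighbouring peaks share chromatin, so these p-values are too small to an unknown degree.

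Members were denser than peaks deeper in introns. The genome held 22.1 Mb of intronic sequence at these distances, with 65.3 members per Mb (95% Poisson interval 62.0 to 68.7), against 884 peaks and 29.5 per Mb (27.6 to 31.5) in deeper introns. The ratio was 2.21 (2-sided exact binomial test, p = 3.9e-80). This test counts each peak as independent, although peaks cluster, so its p-value is too small to an unknown degree. Outside gene bodies at the same distances the density was 50.2 per Mb (46.5 to 54.2), and within 500 bp of a start site it was 148.6 per Mb. Density fell with distance, from 86.7 per Mb up to 1 kb through 70.8, 57.0 and 57.0 in the next 1 kb bins to 50.9 per Mb between 4 and 5 kb. The median distance of a member was 1843 bp. The signal changed little over these distances, with medians between 288.6 and 319.9. At the inner edge of the rule, 43 members up to 50 bp past the bound had a median signal of 312, and 34 intronic summits in the last 50 bp before it had 317. At the outer edge, 11 members in the last 50 bp had 329, and 7 intronic summits up to 50 bp beyond had 349.

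First introns carried most members. Of the 1443, 1088 (75.4%) lay in the first intron of at least 1 annotated transcript, at 83.3 per Mb, and 355 lay in later introns only, at 39.2 per Mb, a ratio of 2.12 (2-sided exact binomial test, p = 1.1e-38). Since members cluster, this p-value too is too small to an unknown degree. The ratio was 1.82 up to 1 kb, 2.72 between 1 and 2 kb, 2.08 between 2 and 3 kb, 1.56 between 3 and 4 kb and 1.88 between 4 and 5 kb. First introns thus had the higher density in each of these bins. Peaks outside gene bodies lay between first and later introns up to 3000 bp and close to later introns beyond.

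**Figure D1:**
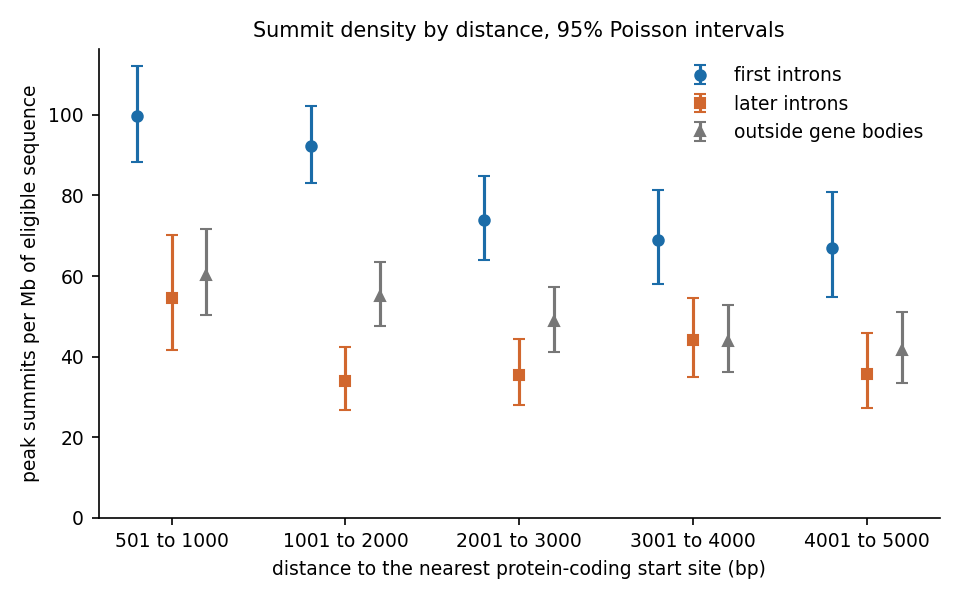
Peak summits per Mb of eligible sequence (vertical axis) in 5 bins of distance to the nearest protein-coding start site in bp (horizontal axis), with 95% Poisson intervals, for first introns, later introns and sequence outside gene bodies. First introns lie above later introns in each bin, at 99.6 against 54.6 per Mb in the nearest bin and 66.9 against 35.6 per Mb in the farthest.

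The start site nearest to a member belonged to the host gene for 1261 members and to another gene for 182. Downstream of a start site of the host lay 883 members (68.1 per Mb, 63.6 to 72.7). Upstream of a start site inside the host, where a shorter transcript begins, lay 378 members at a density of 103.8 per Mb (93.6 to 114.8). Upstream of another gene's start site lay 125 (36.6 per Mb), and downstream of one lay 57 (27.6 per Mb). The intervals of the host and non-host classes did not overlap, but they count each member as independent, although members cluster. On the arms X, 2L, 2R, 3L and 3R members stood at 61.9 to 67.8 per Mb, with overlapping intervals, while chromosome 4 held 3 members at 10.8 per Mb (2.22 to 31.4). Another summit of the optimal set lay within 1000 bp of 386 members (26.7%, 24.5 to 29.1%), against 26.5% of proximal intergenic, 20.4% of deep intronic and 17.8% of promoter peaks.

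Members lay in 908 of the 9174 protein-coding genes with any eligible sequence, or 9.90%. Hosting rose with the length of eligible intron: in 4 equal groups of genes ordered by that length, 0.044%, 0.654%, 7.37% and 31.5% hosted a member. A single member lay in 587 genes, 2 or more in 321, and 5 or more in 29. The gene with the most was shn, a zinc finger protein that acts with Mad in Dpp signalling, with 14 members in 34.5 kb of eligible intron (405 per Mb), signals of 172 to 1034 and a peak in both replicate lists for all 14. CG1677 held 13, Tlk 10, all in a first intron, and sick 9. A member inside 2 or more gene bodies, as 68 members were, counts for each gene. The strongest member counted for CG1677 (signal 1502) also lay in Dok, 801 bp from the start site of Dok. Members numbered 7 in kirre, an immunoglobulin adhesion protein of muscle founder cells, in CHES-1-like, a forkhead gene, in RapGAP1, a GTPase-activating protein, and in CG43658. The 7 of kirre stood at 69.6 per Mb of eligible intron, while those of CHES-1-like sat in 15.2 kb (462 per Mb).

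Genes with 6 members were tkv, the type I receptor of Dpp, ush, tou, rols, a scaffold of myoblast fusion, siz, bun, px, Ptp61F, SNF4Agamma and CG32264. Those with 5 were Btk, a Tec family kinase, NFAT, Kdm4B, a histone demethylase, psq, loco, a regulator of G protein signalling in glia, shot, a spectraplakin, Svil, Spn, apt, CG14434 and CG42258. The densest of these 29 genes was CG14434, with 5 members in 8.11 kb (616 per Mb). Loco held its 5 in 9.24 kb (541 per Mb), with modest signals of 182 to 279. NFAT held a strong member, with a signal of 1532, and its best ranks were 144 in replicate 2 and 129 in replicate 3.

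Of the gene lists reported, the highest shares of hosts were among genes of sensory organ precursors and asymmetric division, where 13 of 20 eligible genes (65.0%) held 44 members, against 9.90% of all eligible genes. Genes of most of these lists have more eligible intron than the median gene, and hosting rose with intron length, so the density per Mb is given beside each count; no list was tested. Of the 44 members of the sensory organ precursor list, 14 lay in shn alone. That list had 199.9 members per Mb (145.2 to 268.3), against 65.3 over all eligible introns. Its 4 hosts with the strongest members were ush, cpo, an RNA-binding protein of the peripheral nervous system, numb, a Notch inhibitor handed to 1 daughter of a dividing precursor, and brat, a translational repressor of neural stem cell growth. The member of cpo had a signal of 1829 and ranked 178 in replicate 2 and 43 in replicate 3. That of numb had a signal of 1670 and ranked 274 and 45, and that of brat had 1647 and ranked 120 and 112. For cpo and numb the replicates thus differed in rank by over 4 times, in the same direction.

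Dpp, Hedgehog and Wingless signalling had 14 hosts of 28 and 202 members per Mb (147.9 to 269.5). The strongest were in Mad, the transcription factor of Dpp signalling (signal 1377, ranks 136 and 242), nkd, a Wingless feedback inhibitor (1060, ranks 358 and 278), shn (1034, ranks 321 and 358) and ptc, the Hedgehog receptor (710, ranks 735 and 818). Since shn stands in both of these lists, its 14 members count in each. EGF and FGF receptor signalling had 14 hosts of 25 and 153.7 per Mb (102.2 to 222.2). Its strongest members lay in aos, the secreted inhibitor of the EGF receptor (signal 1628, ranks 106 and 138), Raf, a kinase of the pathway (1439, ranks 133 and 205), drk, an adaptor (954, ranks 364 and 470), and aop, an Ets repressor (934, ranks 356 and 544).

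Genes of chromatin had 8 hosts of 24 and the highest density, 230.6 per Mb (138.9 to 360.2). They were led by Trl, trx, a histone methyltransferase (signal 1504, ranks 123 and 171), ph-p, a Polycomb group protein (884, ranks 531 and 443), and Sin3A, a corepressor (684, ranks 872 and 749). Glial genes had 3 hosts of 13 (pnt, loco and ttk) and 152.5 per Mb (73.1 to 280.4). Both intervals lay above the 65.3 per Mb of all eligible introns. All the gene lists were chosen with earlier results of these data known, so such a position is no independent support. The intervals of all the lists count members as independent, although members cluster within genes, so they are too narrow to an unknown degree. Of the 10 glial members, 5 lay in loco and 4 in pnt.

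Genes of the Notch pathway had 6 hosts of 20 and 119 members per Mb (61.7 to 208.6), an interval that includes 65.3. The strongest lay in numb and in neur, the ubiquitin ligase that activates Notch ligands (signal 1463, ranks 392 and 78), mam, the coactivator of Notch (1095, ranks 246 and 382), and fng, which glycosylates Notch (374, ranks 1955 and 2544). The member of neur lay 4989 bp upstream of a start site of tgo, just inside the rule. N itself held 2 members, the stronger with a signal of 213 and ranks of 6028 and 4191, below the median signal of 299.6 over all members. Neuroblast and temporal genes had 6 hosts of 14 (111.5 per Mb, 59.4 to 190.7), led by grh, nub, pdm2 and ey. Tracheal and epithelial genes had 9 of 18 (73.6 per Mb), led by grh, rib, crb and dlg1. Mesoderm and muscle genes had 7 of 24 (66.9 per Mb), led by kirre, mbc, zfh1 and nau. Hox and homeodomain selector genes had 6 of 25 (63.6 per Mb), led by Antp, Abd-B, lab and hth. Neuronal and axon guidance genes had 13 of 30 but, over their long introns, 60.1 per Mb (36.7 to 92.9), led by fra, Ten-a, NetB and sli. Ecdysone and nuclear receptor genes had 8 of 21 (57.2 per Mb), led by Hr3, Eip75B, Hr4 and Eip78C. The intervals of these 6 lists included the overall density.

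Proneural and partner bHLH genes had 1 host of 4, nau, a myogenic gene that also stands in the mesoderm and muscle list. Its member had a signal of 488 and lay 2577 bp from the nearest start site, one of CG10300. The other bHLH-Orange repressors had 0 hosts of 6 and ribosomal protein genes 0 of 23, but they hold so little eligible intron that their Poisson intervals reached 473 and 507 per Mb. Genes of the E(spl) and Bearded family, whose members are mostly without introns, had no eligible sequence, so the rule could not select a peak in them.

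**Figure D2:**
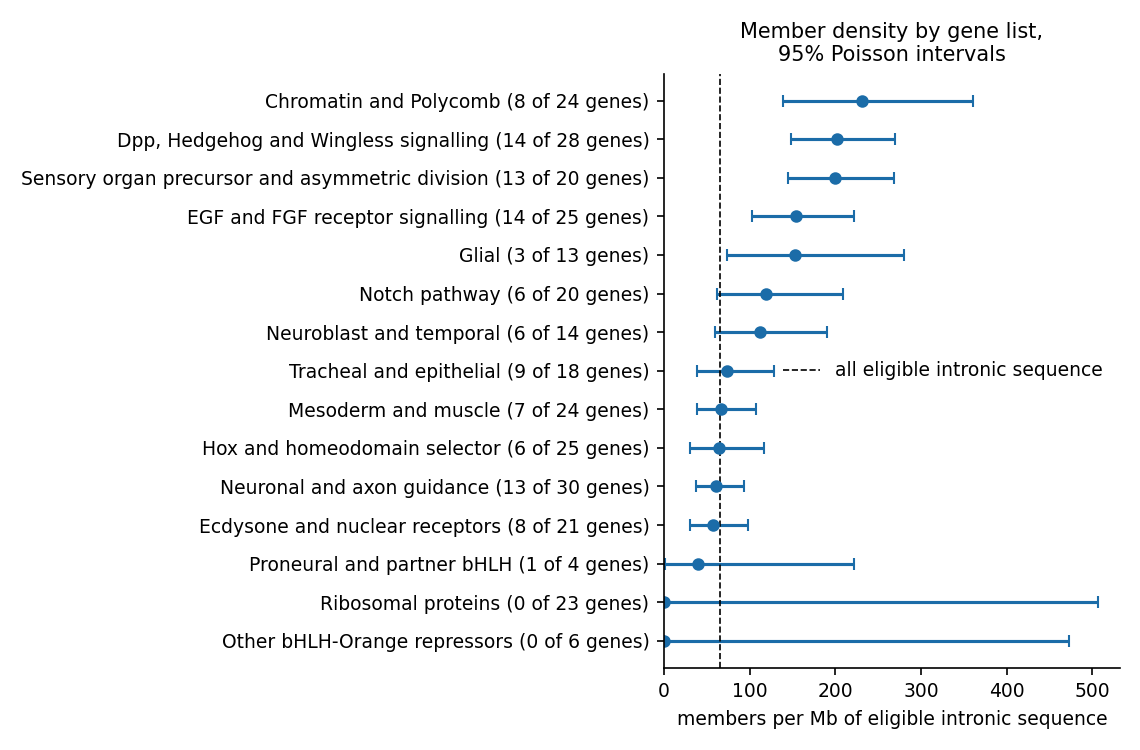
Members per Mb of eligible intronic sequence (horizontal axis) for the gene lists reported that have eligible sequence (vertical axis), with the number of genes hosting a member of the number eligible and 95% Poisson intervals; the dashed line is the density over all eligible introns, 65.3 per Mb. Chromatin, Dpp, Hedgehog and Wingless signalling and the sensory organ precursor list lie at 199.9 to 230.6 per Mb.

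At the summits themselves the sequence was poor in G and C. Mean G+C was 34.2% in windows of 50 bp to either side of member summits, rose to 43.7% and 43.9% in windows 200 bp to either side, and was 41.2% and 41.0% in windows 1000 bp away. Deep intronic and promoter summits had the same dip, to 34.8% and 34.5%. In the optimal set, members of low G+C were stronger: the 402 members with 11.9 to 26.7% had a median signal of 341, and the 342 with 41.6 to 65.3% had 265. Of these, 62 and 21 stood in the strongest 10% of the optimal set. In 4 groups of rising G+C the median ranks were 2342.5, 2536, 3030 and 3438 in replicate 2. In replicate 3 they were 2473, 2861.5, 3057 and 2792, so there the group of highest G+C ranked better than both middle groups.

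**Figure D3:**
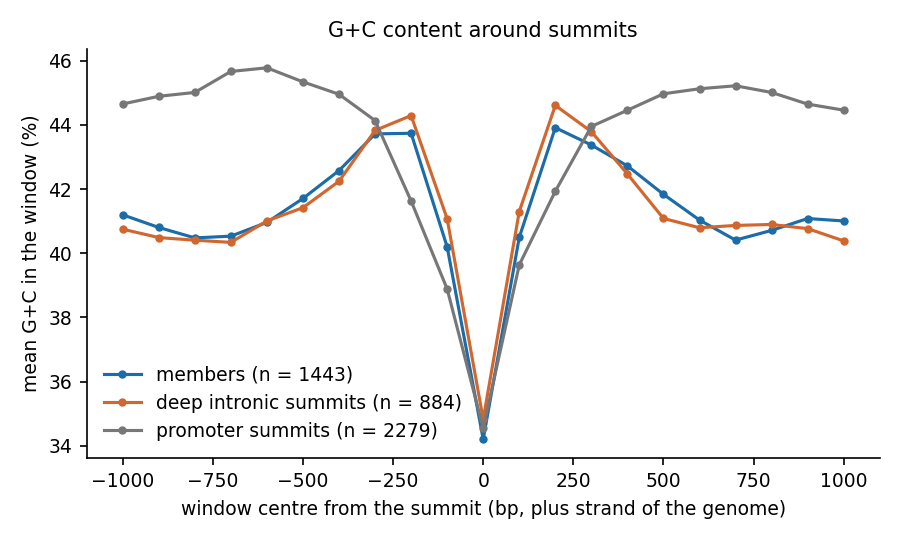
Mean G+C in windows of 50 bp to either side of their centre (vertical axis, %) against the distance of the window centre from the summit in bp (horizontal axis), for members, deep intronic and promoter summits. Each class falls to 34.2 to 34.8% at the summit, and members stand near 41% at 1000 bp.

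A list of 27 motifs was searched on both strands in those windows and in control windows of the same length 1000 bp to a randomly chosen side. For bHLH proteins they were the class B E-box CACGTG, the class C site CACGCG, the N box CACNAG, the E-box CAGCTG of proneural and myogenic activators, the E-box CAGGTG of proneural activators and Snail, the Twist E-box CATATG and a further Twist E-box CATGTG, and the Atonal family E-box CAGATG. For Notch signalling they were the Su(H) core TGGGAA and the Su(H) site GTGGGAA that contains it. For other factors they were the Zelda site CAGGTA, the GATA factor site AGATAA, the homeodomain site TAATTA, the Abdominal-B and Caudal type site TTTATG, the GAGA factor site GAGAGA, the part AACCGG of the Grainy head site, the DREF and BEAF-32 core ATCGATA, the AP-1 site TGANTCA, the Ets site CCGGAA, the Scalloped site GGAATG, the Tramtrack type site AGGATA, the POU octamer ATTTGCAT and the Sox site AACAAT. The others were the CA repeat CACACA, the A run AAAAAA, the TATA box TATAAA and, as a control, the C-rich run CCCTCCC. Of these, 4 (14.8%) were higher at member summits by a 2-sided exact McNemar test with Benjamini-Hochberg adjustment, and 2 (7.41%) were lower. All 4 that rose are rich in A and T. TATAAA stood in 21.8% of members (19.7 to 24.0%) and 12.6% of controls (exact adjusted p = 1.7e-09), against 21.4% of windows over all peaks of the optimal set. The GATA factor site AGATAA stood in 9.42% against 5.82% (exact adjusted p = 0.0029; 7.93% of all peaks), the Sox site AACAAT in 15.5% against 11.6% (adjusted p = 0.0125; 13.8% of all peaks), and the run AAAAAA in 24.5% against 19.7% (adjusted p = 0.0125; 25.1% of all peaks).

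Both motifs that fell past the threshold were those of Su(H), the DNA-binding partner of Notch. TGGGAA stood in 4.23% of member summits against 6.72% of controls (exact adjusted p = 0.0185; 5.59% of all peaks). GTGGGAA stood in 6 members (0.416%, 0.153 to 0.903%) against 23 controls (1.59%, exact adjusted p = 0.0125; 1.20% of all peaks). The C-rich control CCCTCCC stood in 10 members and 21 controls (0.693% and 1.46%), without a call (exact McNemar test, adjusted p = 0.166). Its summit over control ratio was 0.476, against 0.629 for TGGGAA and 0.261 for GTGGGAA. Controls were not matched for G+C, which was 34.2% at summits and 41.2% and 41.0% at 1000 bp. The part of G+C in the motif shares was not tested. The sites of the tagged protein's own family did not pass. CACGTG was in 24 members (1.66%, 1.07 to 2.46%) and 18 controls (exact adjusted p = 0.844), against 2.00% of all peaks. CACGCG was in 46 members (3.19%, 2.34 to 4.23%) and 33 controls (exact adjusted p = 0.397), against 3.32% of all peaks. Control windows at 1000 bp can fall in exons or promoters. With the 968 members whose control held no exon and lay over 500 bp from a start site, CACGCG stood in 37 members and 15 controls (3.82% and 1.55%, exact adjusted p = 0.0380), while CACGTG stood in 16 and 13 (adjusted p = 0.914). Under that control, the GATA factor site, the Sox site, the A run and the Su(H) site missed the threshold (exact adjusted p = 0.0761, 0.0588, 0.127 and 0.0761), and the TATA box and the Su(H) core kept it (adjusted p = 1.2e-05 and 0.0380). The summit over control ratios of the 4 that missed it were 1.48, 1.36, 1.19 and 0.294 with these fewer members, against 1.62, 1.33, 1.24 and 0.261 with all. Among members drawn from as many of the strongest peaks of replicate 3 alone as the optimal set holds, 1 motif was higher, TATAAA, and 0 were lower, and from those of replicate 2 alone 4 were higher and 1 was lower. GTGGGAA missed the threshold in both of these (exact adjusted p = 0.192 and 0.166), as did TGGGAA (adjusted p = 0.0783 and 0.212).

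**Figure D4:**
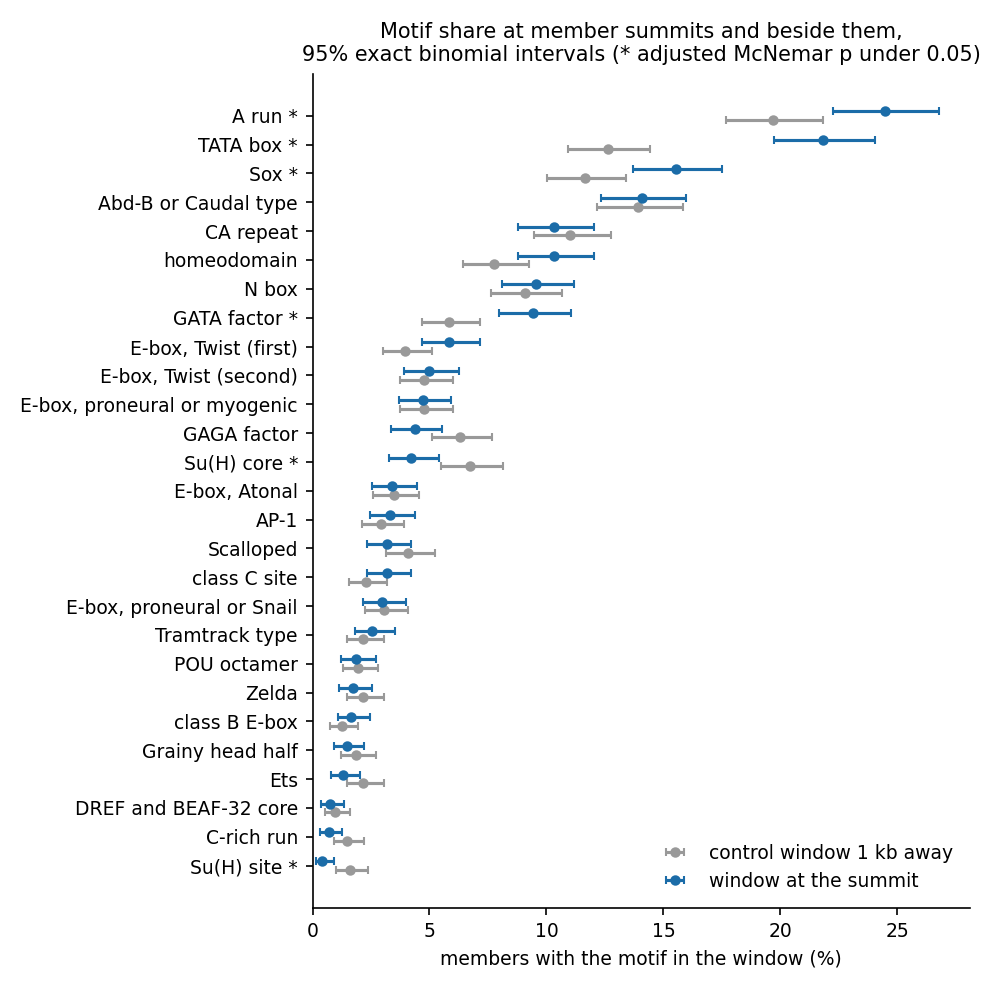
Share of the 1443 members with a motif within 50 bp of the summit (blue) and in a control window of the same length 1 kb away (grey), horizontal axis in %, with 95% exact binomial intervals, for 27 motifs (vertical axis); asterisks mark an adjusted McNemar p under 0.05. The TATA box stands out at 21.8% against 12.6%, and the class B E-box and class C site overlap their controls.

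Over all words of 6 bases, counted with their reverse complements, 172 (8.27%) were higher at member summits and 247 (11.9%) lower by the same test. Of the 172, 170 held 2 or fewer G or C, as do 720 of all the words searched. Of the 247, 172 held 4 or more, as do 720 of all the words searched. Among words in at least 2% of summits, GTACTA had the highest ratio, at 4.16% of summits and 1.59% of controls, and of the 20 with the highest ratios AAATAT was the commonest, at 34.4% and 17.0%.

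Against other classes of peak, 7 of 81 motif comparisons passed (8.64%, 2-sided Fisher's exact tests, adjusted over the 81), and 6 of them were against promoter peaks. The DREF and BEAF-32 element ATCGATA, typical of promoters of widely expressed genes, stood in 0.762% of members and 5.48% of promoter summits (exact adjusted p = 1.6e-14). The Ets site CCGGAA stood in 1.32% and 3.42% (exact adjusted p = 0.00137), and GTGGGAA in 0.416% and 1.58% (adjusted p = 0.0140). The Twist E-box CATATG was higher in members, at 5.82% against 2.94% (exact adjusted p = 0.00101), as were AGATAA, at 9.42% against 6.71%, and CACACA, at 10.3% against 7.50% (adjusted p = 0.0374 for each). The remaining call was GTGGGAA against proximal intergenic summits (1.94%, exact adjusted p = 0.0283). No motif passed between members and deep intronic summits (Fisher's exact test), where 3 of 27 had an unadjusted p under 0.05. With the strongest peaks of replicate 3 alone 3 of the 81 comparisons passed, all against promoter peaks. CACGTG was at 1.92% and CACGCG at 3.62% in deep intronic summits, and 2.98% and 5.37% in proximal intergenic ones, where the differences from members did not pass (exact adjusted p = 0.271 and 0.121).

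The authors' list called on pooled replicates held 5140 weaker peaks that met the same rule and overlapped no peak of the optimal set, with a median signal of 62.4. Of 27 motifs, 10 (37.0%) differed between members and these weaker peaks by Fisher's exact test. TATAAA (21.8% against 13.5%, exact adjusted p = 2.0e-12), TAATTA (10.3% against 6.48%), AACAAT (15.5% against 11.2%), the A run, the Twist E-box CATATG and the GATA factor site were higher in members. The Su(H) core TGGGAA (4.23% against 6.69%), the Su(H) site, the Ets site and the Scalloped site were lower. Those higher in members are rich in A and T. G+C of the weaker peaks is not given here, and its part in these differences was not tested. Each peak was counted as independent, although peaks cluster. CACGTG, at 1.66% and 1.81%, and CACGCG, at 3.19% and 2.76%, did not differ past the threshold (exact adjusted p = 0.853 and 0.494).

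The ranks of cpo, numb and neur led to a further comparison, chosen after the values were seen: whether members with a motif ranked better in replicate 3 than in replicate 2. All 27 motifs were tested by 2-sided Fisher's exact test, and 3 (11.1%) passed. Of members with the E-box CAGCTG, 51 of 68 ranked better in replicate 3, against 46.0% of those without (exact adjusted p = 7.1e-05). With CACGCG it was 34 of 46 (73.9%) against 46.5%, and with CACGTG 20 of 24 (83.3%) against 46.8% (exact adjusted p = 0.00296 for each). The 46 members with CACGCG had a median rank of 4089 in replicate 2 and 2398 in replicate 3, and the 24 with CACGTG had 4201 and 2831.5, while the 1397 members without CACGCG had 2830.5 and 2782.5. Members of numb and neur are among those with these sites, so the comparison in part restates what led to it. Without the members in cpo, numb and neur, in a setting added later, the differences were 28.8 percentage points for CAGCTG, 27.0 for CACGCG and 35.1 for CACGTG (exact adjusted p = 0.000109, 0.00531 and 0.00912). Leaving these genes out does not undo the choice, since members of the same lean, such as those of phyl, ckn and pico, remained. Fisher tests count each member once, although members cluster. These p-values are thus too small to an unknown degree and no support apart from the ranks that led to them.

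G+C content moved with this. Among the 342 members of highest G+C, 44 of 50 with a class B or class C site ranked better in replicate 3 (88.0%, 75.7 to 95.5%), and so did 175 of 292 without (59.9%, 54.1 to 65.6%). Among members of 33.7 to 40.6% G+C the counts were 7 of 16 (43.8%) and 144 of 333 (43.2%). The part of G+C in the difference was not tested beyond these values. Some members also share a replicate peak with another member, 110 in replicate 2 and 116 in replicate 3, and such members carry the same ranks. With only the strongest member of each host gene, CAGCTG alone passed, while CACGTG (exact adjusted p = 0.0572) and CACGCG (adjusted p = 0.136) did not.

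Ranks differed by over 3 times in favour of replicate 3 for 60 members and in favour of replicate 2 for 31, counting a list without the peak as last. The 60 lay in 46 genes and 48 peaks of the replicate 3 list, so they are not independent. Of the 60, 16 (26.7%, 16.1 to 39.7%) held a class B or class C site, against 69 of all 1443 members (4.78%), and their median G+C was 48.5%. Of the 31, 1 did (3.23%, 0.082 to 16.7%), with a median G+C of 35.6%. These groups were formed by rank and are described without a test. By signal, the 60 were led by cpo, numb, pros, a homeodomain regulator of neural differentiation (ranks 262 and 59), the intron of PH4alphaEFB 1786 bp upstream of spdo, a gene of asymmetric division (278 and 84), neur, msi, an RNA-binding protein of sensory organ cells (367 and 76), HnRNP-K (349 and 89), ckn (435 and 97), phyl, a factor of sensory precursor fate (549 and 93), and pico (585 and 172). The sequences of numb, PH4alphaEFB, neur, pico and mib2 printed above belong to this group, and those of Rbfox1 (138 and 160), Notum (1174 and 918) and Klp98A (857 and 1132) do not. Of these 3, Rbfox1 and Klp98A ranked better in replicate 2. Members on arm 2R were not printed, among them ckn and phyl of this group, so the printed sequences do not give its share. Of the 44 members of the sensory organ precursor list, 8 were among the 60 and 0 among the 31; of the 12 Notch pathway members, 4 and 0. Over all members the shares were 4.16% and 2.15%. The 8 lay in 5 genes (numb, neur, pros, cpo and phyl) and 6 peaks of the replicate 3 list, and the 4 were those of numb and neur, in 3 peaks. Since cpo, numb and neur led to the comparison of replicates, these counts in part restate it and are no separate evidence for a pathway. The names in this paragraph outside the gene lists were chosen after their values were seen.

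**Figure D5:**
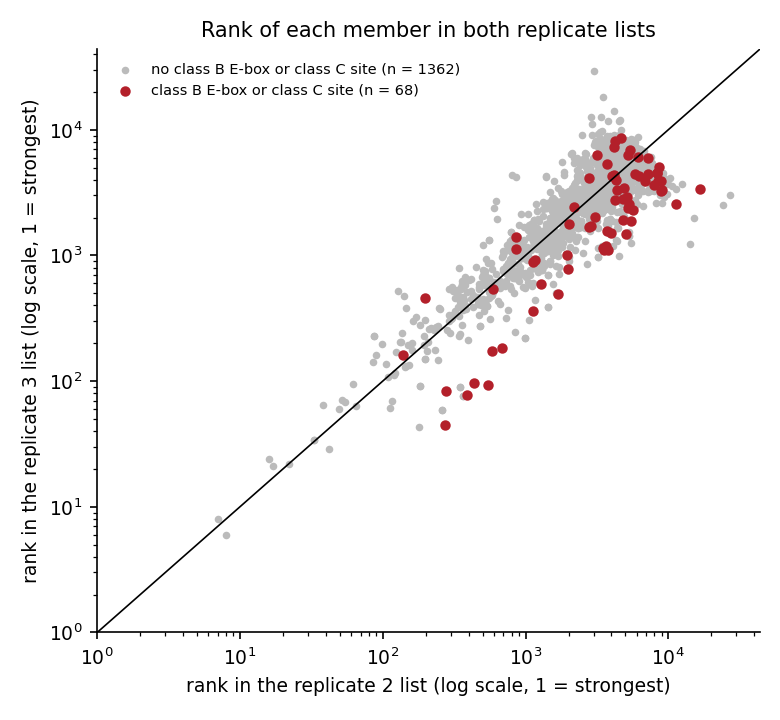
Rank of each of the 1430 members in the replicate 2 list (horizontal axis, log scale) and in the replicate 3 list (vertical axis, log scale), where 1 is the strongest peak; red points hold a class B E-box or class C site, grey points hold neither, and the line marks equal ranks. Many red points lie below the line, on the side of the better rank in replicate 3, among them numb at 274 and 45.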

How the data were processed

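Peaks were taken from 4 narrowPeak lists deposited by the authors on dm6: the optimal set of 6152 peaks, a list of 30000 peaks called on pooled replicates, and 1 list per replicate. The signal of a peak and its −log10 q-value are the authors' deposited values; they served only for description and for ranks inside 1 list. No source used here gives the caller, the aligner or the reproducibility threshold. Read counts were not in the files used, so the depth of each replicate is unknown; intervals cover counting error only.

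Summits were placed on an Ensembl annotation (release 115; 13945 protein-coding genes) and the RefSeq sequence of the same assembly with Python 3.11.15, numpy 2.4.6, pandas 2.3.3 and scipy 1.17.1. Tests were exact (McNemar, Fisher, binomial), 2-sided, with a threshold of 0.05 after Benjamini-Hochberg adjustment. The motif tests were checked on simulated independent windows of equal base composition with planted CACGCG sites. That check does not cover the G+C difference between summits and controls or the clustering of peaks. Peaks are not independent replicates, so these p-values describe the peaks of this 1 group.

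The members, motifs and gene lists were chosen with earlier results of these data known. Genes named are the hosts and nearest genes of the 20 strongest members, hosts of 5 or more members, and the 4 hosts with the strongest member in each list, besides those said to be chosen later. Of the gene lists, 1 is not reported here. Windows on arm 2R are not printed. Alternatives varied the peak threshold, replicate, annotation, distance bound, windows and overlap. No paired analysis was possible because there was 1 group.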

Additional observations from a re-analysis of the deposited data

How the results depend on the processing

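Of 385 values recomputed under alternatives, 283 kept direction and side of the threshold, or stayed close in size. Of the others, 46 lost the threshold, 9 gained it, 9 reversed direction and 38 counts or densities moved further in size. The 283 include values that could not change, such as the host count of the E(spl) and Bearded family, which has no eligible sequence. The density of members over deep intronic peaks and of first over later introns kept both throughout, at 2.22 to 2.23 and 2.16 to 2.23 with 1 replicate's list alone. Without each replicate in turn there were 1405 to 1435 members, 63.6 to 64.9 per Mb and 874 to 910 host genes. The stronger 50% held, by construction, fewer: 750 members, 33.9 per Mb, 565 host genes. A lower bound of 1 kb gave 60.7 per Mb.

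Motif calls against controls were less stable, and the cause was not tested. From 4 higher and 2 lower motifs, the counts went to 2 and 1 with controls outside exons and promoters and with windows within 25 bp, 2 and 0 at a lower bound of 1 kb, 0 lower in the stronger 50%, 1 lower with controls 2 kb away, and 1 to 4 higher and 0 to 1 lower without each replicate. The summit over control ratio fell below 1 for CACGTG within 25 bp (0.800) and without replicate 3 (0.857), and for CACGCG without replicate 3 (0.946), against 1.26 without replicate 2. 6-mers, in settings chosen after seeing the data, went from 172 and 247 to 72 higher and 69 lower with controls outside exons and promoters, and to 112 and 89 in the stronger 50%, in both of which fewer members entered, and were 146 to 200 and 179 to 298 without each replicate.

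Against other classes, calls for deep intronic, proximal intergenic and promoter summits went from 0, 1 and 6 to 1, 3 and 11 within 100 bp, to 0, 0 and 1 within 25 bp, to 1 and 0 for the intronic and intergenic ones in the stronger 50%, and to 0 to 1, 0 to 1 and 3 to 6 without each replicate. Weaker peaks differed in 6 motifs within 25 bp. The comparison of ranks between replicates, its alternatives likewise chosen after seeing the data, gave 1 motif with 1 member per host gene and 2 to 4 in its other settings; within 25 bp CACGTG missed the threshold (exact adjusted p = 0.206).

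Members minus deep intronic peaks in the stronger 50% was 5.03 percentage points, 3.24 in the strongest 10% (exact adjusted p = 0.0403) and 6.13 to 6.57 without each replicate. Members minus promoter peaks was 0.110, and -0.959 at a lower bound of 1 kb, -2.34 in the strongest 10% and -3.10 to 2.92 without each replicate. Overlap with replicate 3 exceeded that of deep intronic peaks by 3.80 points, by 3.64 at 50% overlap (exact adjusted p = 0.0733), by 3.54 for summits within 100 bp (adjusted p = 0.0688) and by -0.0257 in the stronger 50%. Against proximal intergenic peaks the difference in the stronger 50% was 0.654, and against promoter peaks in replicate 2 it was -0.0138 at 50% overlap.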

Other observations

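Members that 1 replicate ranked far better than the other also included 31 in favour of replicate 2. The strongest lay in CG10543 (signal 1241, ranks 127 and 520 in replicates 2 and 3) and CG17124 (1222, ranks 141 and 472). The third lay in psq, a BTB-domain chromatin protein, with a signal of 628, a rank of 1076 in replicate 2 and no peak in replicate 3. Scr, a Hox gene, held the only class C site among the 31, in a member with a signal of 251, a rank of 5611 in replicate 2 and no peak in replicate 3. These genes were chosen after their values were seen.

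The lists also differed in how often their members ranked better in replicate 3, which was 47.3% over all 1443 members. The count was 9 of 10 for glial genes, 9 of 13 for neuroblast and temporal genes and 18 of 28 for EGF and FGF receptor signalling, and 7 of 20 for neuronal and axon guidance genes and 5 of 13 for ecdysone and nuclear receptor genes. Glial members lay in 3 genes only (pnt, loco and ttk), and no test was made.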
